A study of Homo sapiens with 4 samples.

Results

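The enzymes described here are 10 human genes, 9 dehydrogenases that oxidize aldehydes or the glutathione adduct of formaldehyde and 1 hydrolase that takes the next step after ADH5. They are ADH5, ESD, ALDH2, ALDH1A1, ALDH1A3, ALDH1B1, ALDH3A1, ALDH3A2, ALDH7A1 and ALDH9A1. They were taken by name, not by their values, though earlier results of these data were known. All 10 were found among the 23004 gene names in the files. RNA was sequenced from the BEAS-2B line, bronchial epithelial cells of human origin that a viral oncogene made immortal. Of the 4 libraries, 2 came from cells given 100 µM of the compound for 48 h and 2 from cells without it. The treatment label states dose and time, and the title of the series names the compound, formaldehyde. That title concerns cell transformation and chromatin assembly. No label tells if replicates came from separate cultures, and p-values therefore measure only how these libraries scatter, in part perhaps for technical reasons.

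Formaldehyde is made inside cells by demethylation and taken up from outside, and it reacts with protein and DNA. In cells much of it combines with glutathione. ADH5 oxidizes that adduct to S-formylglutathione, and ESD splits the product into formate and free glutathione, which can be used again. Aldehyde dehydrogenases oxidize free aldehydes to acids with NAD or NADP. ALDH2 and ALDH1B1 work in mitochondria, ALDH1A1 and ALDH1A3 make retinoic acid from retinal, ALDH3A1 is abundant in the cornea, ALDH3A2 acts on fatty aldehydes, ALDH7A1 belongs to lysine breakdown and ALDH9A1 to carnitine synthesis.

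Levels are the FPKM values that the authors deposited, which count fragments per transcript length and per library depth, here added up over the transcripts of each gene. They are per length, so that levels of different genes can be set side by side. The deposited bounds and coverage gave a depth of about 14200000 and 22200000 fragments for the formaldehyde libraries and 16800000 and 26500000 for the untreated libraries. KRT7, KRT8 and KRT18, keratins of simple epithelium, stood between 319 and 531 FPKM with formaldehyde and between 140.1 and 291 FPKM untreated, with no difference called (limma adjusted p = 0.9999 for each). In each of them both formaldehyde libraries lay above both untreated ones, as in 16.2% of all genes. Their log2 fold changes were 1.32, 0.57 and 0.84, in that order (limma unadjusted p = 0.0129, 0.0547 and 0.0157). The summed level of the 11 epithelial markers was 1401 and 1205 FPKM with formaldehyde, against 736 and 824 FPKM untreated. CDH1, KRT19 and KRT6A stood under 0.631 FPKM in every library and EPCAM between 0.983 and 3.18 FPKM. Of the basal-cell markers, KRT17 had 61.2 and 48.04 FPKM with formaldehyde, against 26.4 and 178 FPKM untreated. KRT14 stood at 0.222 to 4.66 FPKM, and KRT5 and TP63 were listed at 0 in every library. The lists of 3 endothelial, 5 hepatocyte and 4 measured ciliated or secretory airway markers each summed to at most 0.509 FPKM in a library. Among 7 fibroblast markers, whose sum was 145 and 277 FPKM with formaldehyde against 301 and 600 FPKM untreated, COL1A1 made up most and COL3A1 and DCN stood at or near 0. PDGFRB of this list had 7.40 and 22.2 FPKM with formaldehyde, against 21.8 and 29.97 FPKM untreated, which overlap. The 7 leukocyte markers summed to 8.93 and 10.6 FPKM with formaldehyde against 5.61 and 14.9 FPKM untreated, with PTPRC at or near 0 and CD3E at 0. Of these, CD14 had 1.77 and 6.23 FPKM with formaldehyde, against 3.75 and 11.98 FPKM untreated. CORO1A had 4.75 and 4.02 FPKM with formaldehyde, against 1.53 and 2.69 FPKM untreated, which do not overlap (limma unadjusted p = 0.0329, adjusted p = 0.9999). A list of nuclear and noncoding RNAs summed to 810 and 545 FPKM with formaldehyde, against 438 and 868 FPKM untreated. The Pearson correlation of log2(FPKM + 1) over genes (no replicates of each other) was 0.910 for the formaldehyde pair and 0.903 for the untreated pair, and from 0.878 to 0.923 for pairs with 1 library of each group. The part of these differences in the results below was not tested.

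Untreated BEAS-2B cells expressed 8 of the 10 enzymes at 1 FPKM or more. ESD had the highest mean, 39.8 ± 15.5 FPKM, and lay above 87.4% and 92.2% of all gene names in the 2 untreated libraries. ALDH7A1 followed with 31.4 ± 0.526 FPKM, ALDH9A1 with 27.97 ± 10.8 FPKM and ADH5 with 21.8 ± 12.2 FPKM. ALDH3A2 had 18.2 ± 0.479 FPKM and ALDH1B1 17.0026 ± 4.03 FPKM. The ranges of neighbours in this upper order overlapped, from ESD down to ALDH1B1, so that these ranges alone set no neighbours apart. Within every single library, however, ALDH9A1 lay above ADH5, at 35.6 against 30.4 and 20.3 against 13.1 FPKM untreated. With formaldehyde it had 30.6 against 22.02 and 24.5 against 15.3 FPKM. The other neighbours down to ALDH1B1 changed places between the 2 untreated libraries. ALDH2, the dehydrogenase best known for clearing acetaldehyde after drinking, had a lower mean, 11.9 ± 2.15 FPKM. Its range did not reach that of ALDH1B1 but overlapped that of ADH5. In replicate 2 of both groups ALDH2 lay above ADH5, at 13.5 against 13.1 FPKM untreated and 16.1 against 15.3 FPKM with formaldehyde. In replicate 1 of both groups ALDH2 lay below ADH5, at 10.4 against 30.4 FPKM untreated and 12.9 against 22.02 FPKM with formaldehyde. ALDH1A3 followed at 2.44 ± 0.739 FPKM and ALDH3A1 at 0.239 ± 0.0702 FPKM (mean ± SD, n = 2 each), each below the range of the enzyme above it. ALDH1A1 was listed at 0 FPKM in all 4 libraries. With its transcript of 2369 nt, a count of 0 fragments allows up to 0.0890 and 0.0570 FPKM in the formaldehyde libraries and 0.0754 and 0.0479 FPKM in the untreated ones, counted as 3 fragments, for counting error only. ALDH3A1 rested on about 3.39 and 16.9 fragments with formaldehyde and 5.65 and 13.6 fragments untreated, so that its level was near the limit of detection.

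**Figure D1:**
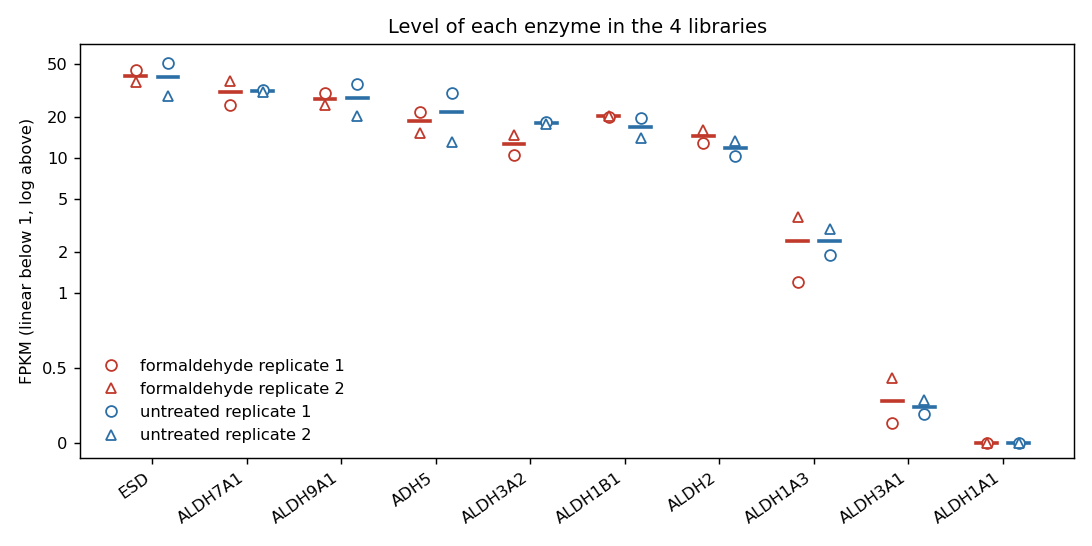
FPKM of each enzyme on an axis that is linear below 1 and logarithmic above; circles and triangles are replicates 1 and 2, red for formaldehyde and blue for untreated, and short bars are group means. From ESD to ALDH2 all libraries lie between 10.4 and 50.7 FPKM, ALDH1A3 lies between 1.196 and 3.65 FPKM, ALDH3A1 under 0.431 FPKM and ALDH1A1 at 0.

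Genes along this order also differ in the DNA just upstream of their starts. RefSeq promoter windows (GRCh38.p14) matched 8 of the 10 enzymes by symbol, and the 250 bases before the start are shown for ADH5 and ESD, which handle formaldehyde bound to glutathione, for ALDH1A1, which was listed at 0, and for ALDH1A3, a close relative of ALDH1A1 that was detected. They are the minus strand of chr4:99088789-99089038 for ADH5, chr13:46797162-46797411 for ESD and chr9:72953054-72953303 for ALDH1A1, and the plus strand of chr15:100879581-100879830 for ALDH1A3. Capitals mark the GC box GGGCGG, the CCAAT box CCAAT and the TATA motif TATAAA on either strand, where matches may overlap.
ADH5: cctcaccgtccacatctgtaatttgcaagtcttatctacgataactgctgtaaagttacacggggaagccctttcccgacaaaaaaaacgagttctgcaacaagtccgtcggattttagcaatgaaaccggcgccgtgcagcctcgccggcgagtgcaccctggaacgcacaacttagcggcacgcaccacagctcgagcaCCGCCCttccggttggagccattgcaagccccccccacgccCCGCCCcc
ESD: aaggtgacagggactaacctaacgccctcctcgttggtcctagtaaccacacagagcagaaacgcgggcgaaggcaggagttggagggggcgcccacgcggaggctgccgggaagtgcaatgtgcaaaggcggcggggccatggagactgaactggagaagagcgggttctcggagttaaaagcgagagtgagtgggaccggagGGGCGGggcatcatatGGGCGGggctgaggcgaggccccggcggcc
ALDH1A1: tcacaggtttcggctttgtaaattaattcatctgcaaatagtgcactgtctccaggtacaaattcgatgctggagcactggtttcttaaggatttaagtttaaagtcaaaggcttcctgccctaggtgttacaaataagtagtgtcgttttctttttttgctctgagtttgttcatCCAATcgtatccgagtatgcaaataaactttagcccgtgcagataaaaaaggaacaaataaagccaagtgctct
ALDH1A3: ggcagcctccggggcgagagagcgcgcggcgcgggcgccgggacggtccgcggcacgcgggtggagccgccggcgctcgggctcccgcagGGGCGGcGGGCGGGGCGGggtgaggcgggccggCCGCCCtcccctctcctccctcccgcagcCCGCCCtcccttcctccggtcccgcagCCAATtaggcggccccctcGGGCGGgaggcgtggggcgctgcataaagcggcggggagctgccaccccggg
The ALDH1A1 window held 6 CG dinucleotides and 38.4% G and C, with 1 CCAAT box and no GC box. ADH5 held 21 CG dinucleotides and 2 GC boxes, ESD held 20 and 2, and ALDH1A3 held 38 CG dinucleotides, 6 GC boxes and 1 CCAAT box. The median over all 35116 windows of this length was 11 CG dinucleotides and 58.0% G and C. A GC box was present in 42.6% of those windows, a CCAAT box in 32.0% and a TATA motif in 10.7%, and the TATA motif was in none of the 4 shown. Over the windows of all 8 matched enzymes, the TATA motif was in none, and ALDH1A1 had the fewest CG dinucleotides. The CG count did not follow the level among the detected enzymes, since ALDH1A3, with the most, was the lowest of these 3. These are matches of letters and say nothing of which factor binds.

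None of the 8 enzymes that passed the filter on low values was called different between formaldehyde and untreated cells. The filter was a mean of at least 1 FPKM, which ALDH1A1 and ALDH3A1 did not reach. By limma on log2(FPKM + 1) over 12407 genes, on which folds of low genes come out too small, 0 of the 8 passed an adjusted p of 0.05, and each had an adjusted p = 0.9999. Over all genes 19 passed, 0.153%, with 10 higher (0.0806%) and 9 lower (0.0725%), and 343 or 2.76% had an unadjusted p under 0.05, as against 0 of the enzymes, where the lowest was 0.0845. Of the 8, 4 were higher and 4 lower with formaldehyde, and their median log2 fold change was -0.01 beside 0.03 over all genes tested. Both formaldehyde libraries lay above both untreated ones for 1 enzyme, ALDH1B1, where 16.2% of all genes did so, and below them for 1, ALDH3A2, where 10.7% did. For the other 6 the groups overlapped. For a single gene, permuting 2 and 2 libraries exactly gives no p below 0.3333 (two-sided). In bulk RNA, fewer cells of a type and less RNA per cell cannot be told apart.

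**Figure D2:**
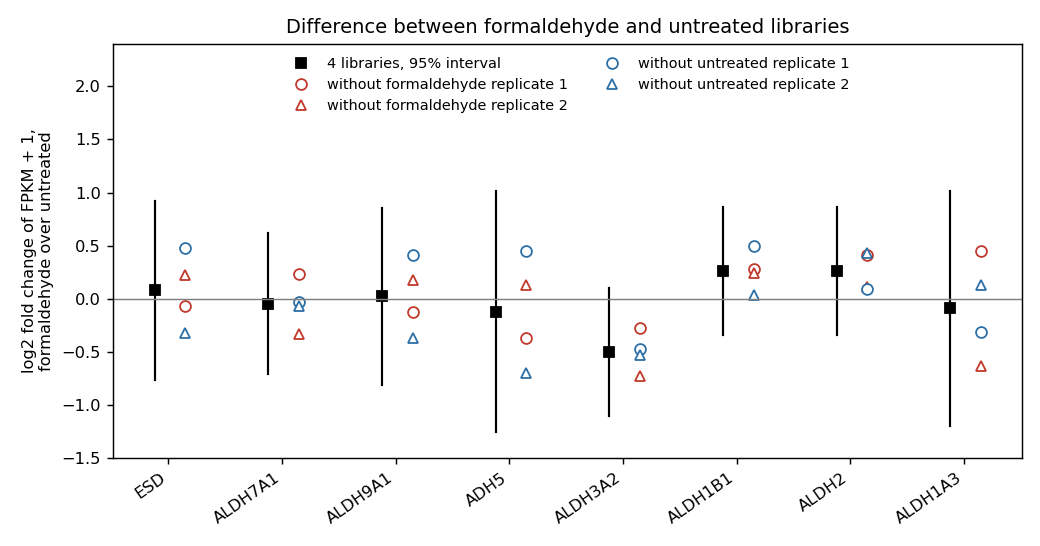
Log2 fold change of FPKM + 1, formaldehyde over untreated, for the 8 tested enzymes in the order of their untreated level; black squares with lines are the fit on 4 libraries with its 95% interval, and open symbols are the values with 1 library left out. Every interval includes 0, ALDH3A2 has the lowest value (-0.50), and the sign for ADH5, ESD, ALDH7A1, ALDH9A1 and ALDH1A3 depends on which library is left out.

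ADH5 and ESD catalyse consecutive steps, and both varied more between untreated libraries than between the groups. ADH5 (chromosome 4, hg19, 99992130 to 100009931) had 22.0186 and 15.3 FPKM in the formaldehyde libraries, against 30.4 and 13.1 FPKM in the untreated ones. The untreated libraries thus held both the highest and the lowest value, and the formaldehyde pair lay inside their range. Its log2 fold change was -0.12 ± 0.44 (SE), with a 95% interval from 0.418-fold to 2.02-fold, so that the fit allowed a lower as well as a higher level. Without untreated replicate 1 the log2 fold change became 0.45, and without formaldehyde replicate 2 it became 0.13. Counting error was small beside this, since ADH5 was counted from 764 to 1246 fragments, a 95% error of 5.67% to 7.24%.

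ESD (chromosome 13, 47345391 to 47371367) had 44.9 and 36.4 FPKM with formaldehyde, against 50.7 and 28.8 FPKM untreated. The formaldehyde pair again lay inside the untreated range. Its log2 fold change was 0.08 ± 0.33 (SE), with a 95% interval from 0.587-fold to 1.896-fold, and it became -0.32 without untreated replicate 2 and -0.07 without formaldehyde replicate 1. ADH5 had fewer FPKM than ESD in every library. The ratio of ADH5 to ESD was 0.491 and 0.420 with formaldehyde, against 0.600 and 0.456 untreated, and these ranges overlapped.

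The mitochondrial pair ALDH2 and ALDH1B1 had higher means with formaldehyde, by small amounts. ALDH2 (chromosome 12, 112204691 to 112247789) had 12.9 and 16.1 FPKM with formaldehyde, against 10.4 and 13.5 FPKM untreated. The lower formaldehyde value lay under the higher untreated one. A transcript with 12 exons (NM_001204889) made up 6.68% of ALDH2 in untreated replicate 1 and near 0 in the other libraries. The log2 fold change was 0.26 ± 0.23 (SE), with a 95% interval from 0.789-fold to 1.82-fold. ALDH1B1 (chromosome 9, 38392661 to 38398662), a relative of ALDH2 whose transcript has 2 exons, had 20.0046 and 20.6 FPKM with formaldehyde, against 19.9 and 14.2 FPKM untreated. The groups did not overlap, but the gap between the nearest libraries was 20.0046 against 19.9 FPKM, less than the spread within the untreated pair. Its log2 fold change was 0.26 ± 0.23 (SE), with a 95% interval from 0.788-fold to 1.82-fold, and it was 0.03 without untreated replicate 2. The ratio of ALDH2 to ALDH1B1 was 0.644 and 0.779 with formaldehyde, against 0.524 and 0.951 untreated, so that ALDH1B1 was the higher of these mitochondrial messages in every library.

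ALDH3A2, the fatty aldehyde dehydrogenase that is defective in Sjögren-Larsson syndrome, differed most. The gene (chromosome 17, 19552064 to 19580908) had 10.6 and 14.8 FPKM in the formaldehyde libraries, against 18.5 and 17.8 FPKM in the untreated ones. Both formaldehyde libraries were low, and their distance from each other was larger than that between the untreated libraries. The mean was 0.699 times the untreated mean and the log2 fold change was -0.50 ± 0.23 (SE, limma unadjusted p = 0.0845, adjusted p = 0.9999). The 95% interval ran from 0.465-fold to 1.07-fold. Without formaldehyde replicate 1, the lowest library, the value was -0.28, and without formaldehyde replicate 2 it was -0.73.

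The 2 listed transcripts of ALDH3A2 showed where that low library stood apart. The transcript with 10 exons (NM_000382, 3702 nt) had 9.67 and 11.6 FPKM with formaldehyde, against 14.9 and 14.1 FPKM untreated, and its groups did not overlap. The transcript with 11 exons (NM_001031806, 3823 nt) had 0.891 and 3.198 FPKM with formaldehyde, against 3.55 and 3.74 FPKM untreated, and its groups did not overlap either. Its share of the gene was 8.44% and 21.6% with formaldehyde and 19.2% and 20.97% untreated, so that by share formaldehyde replicate 1 alone was low. The authors' bounds for this transcript in that library were 0.529 to 1.25 FPKM, below the lower bound of each other library. No test was run on single transcripts, and their values rest on how the authors' software divided shared reads. These 2 transcripts add up to the gene, so that their lack of overlap is no separate result. How many of all transcripts do not overlap was not counted.

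**Figure D3:**
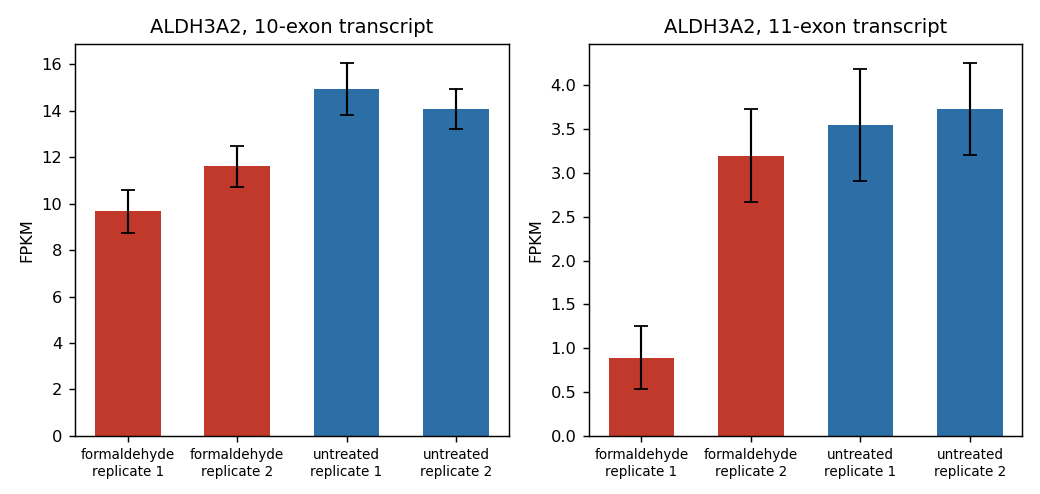
FPKM of both listed ALDH3A2 transcripts in each library, with the authors' deposited bounds as error bars; red bars are formaldehyde and blue bars untreated libraries. The transcript with 10 exons is lower in both formaldehyde libraries (9.67 and 11.6 FPKM) than in the untreated ones (14.9 and 14.1 FPKM), as is the transcript with 11 exons, which is lowest in formaldehyde replicate 1 (0.891 FPKM).

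ALDH7A1 and ALDH9A1, which serve lysine and carnitine metabolism, were among the highest of the set and had nearly equal means in the groups. ALDH7A1 (chromosome 5, 125877533 to 125931082), the enzyme deficient in pyridoxine-dependent epilepsy, had 24.8 and 37.1 FPKM with formaldehyde, against 31.8 and 31.04 FPKM untreated. Here the formaldehyde pair spread widely around a tight untreated pair. Its log2 fold change was -0.05 ± 0.26 (SE), with a 95% interval from 0.610-fold to 1.53-fold, and it was 0.23 without formaldehyde replicate 1. ALDH9A1 (chromosome 1, 165631449 to 165667900) had 30.6 and 24.5 FPKM with formaldehyde, against 35.6 and 20.3 FPKM untreated, the formaldehyde pair inside the untreated range. Its log2 fold change was 0.02 ± 0.32 (SE), with a 95% interval from 0.570-fold to 1.81-fold. Its sign turned with both other scalings of the libraries (-0.02 with median ratios and -0.04 with the FPKM sum), without untreated replicate 2 (-0.37) and without formaldehyde replicate 1 (-0.13).

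Of the enzymes of this set that make retinoic acid, ALDH1A3 was detected and ALDH1A1 was listed at 0. ALDH1A3 (chromosome 15, 101420009 to 101456830) had 1.196 and 3.65 FPKM with formaldehyde, against 1.92 and 2.96 FPKM untreated. The formaldehyde libraries held both the highest and the lowest value. The log2 fold change was -0.09 ± 0.43 (SE), with a 95% interval from 0.436-fold to 2.03-fold on the log2(FPKM + 1) scale, and it was 0.45 without formaldehyde replicate 1 and 0.13 without untreated replicate 2. It was counted from 56 to 267 fragments, a 95% counting error of 12.2% to 26.7%. ALDH3A1 (chromosome 17, 19641298 to 19651746), a neighbour of ALDH3A2, had 0.134 and 0.430 FPKM with formaldehyde, against 0.190 and 0.289 FPKM untreated, and the groups overlapped. Of its 3 transcripts, NM_001135167 held 96.6% to 99.3% of the level in every library. ALDH1A1 lies on chromosome 9 at 75515578 to 75568233. No listed transcript of another gene overlapped any of the 10 enzymes, and the coordinates given with the levels are those of the files.

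Taken as a sum, the 10 enzymes had 167 and 169 FPKM in the formaldehyde libraries, against 199 and 142 FPKM in the untreated ones. The formaldehyde values lay close together and inside the untreated range. ADH5 and ESD together made up 40.1% and 30.6% of the sum with formaldehyde, against 40.7% and 29.5% untreated. ALDH2 and ALDH1B1 together made up 19.7% and 21.7% with formaldehyde, against 15.2% and 19.4% untreated. ALDH1B1 alone had 11.98% and 12.2% with formaldehyde, against 9.96% and 9.97% untreated, while ALDH3A2 had 6.32% and 8.77% with formaldehyde, against 9.27% and 12.5% untreated. For both genes the shares, like the FPKM, did not overlap between the groups, and no test was run on shares, where a higher share of 1 gene lowers the others.

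**Figure D4:**
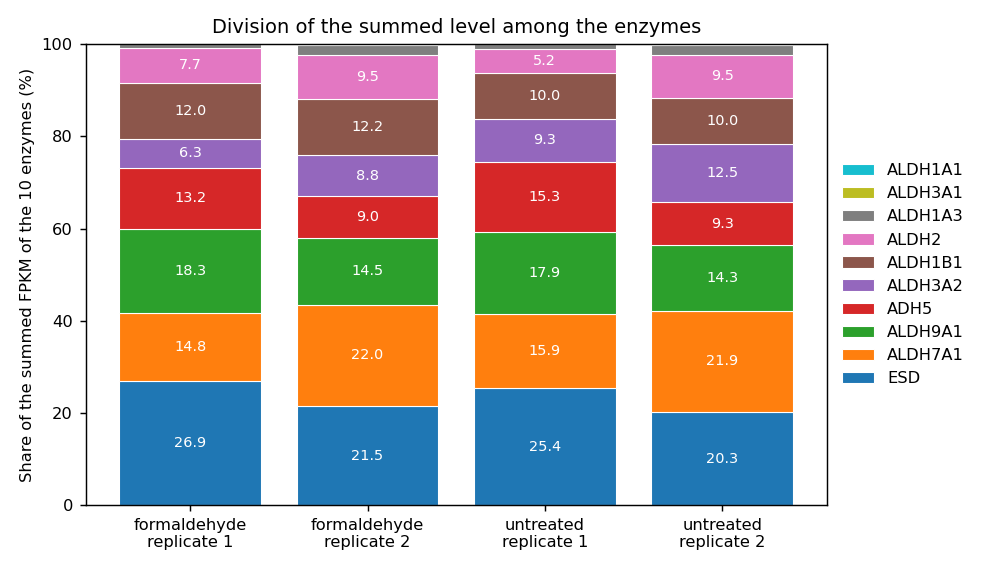
Share of each enzyme in the summed FPKM of the 10 enzymes, in percent, with 1 bar for each library and formaldehyde libraries on the left; numbers give shares above 5%. ESD holds 20.3% to 26.9% in every library, ALDH1B1 is higher (11.98% and 12.2%) and ALDH3A2 lower (6.32% and 8.77%) in the formaldehyde bars than in the untreated ones.

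Genes of neighbouring steps were followed in 7 lists with 95 genes, of which 74 passed the filter. None was called by limma over all genes (adjusted p = 0.9999 for each of the 74). Of the 74, 2 had an unadjusted limma p under 0.05, AKR1B1 and AKR1C3, beside 2.76% of all genes. Both formaldehyde libraries lay above both untreated ones in 12 of the 74 (16.2%) and below them in 9 (12.2%), beside 16.2% and 10.7% of all genes. The 6 other alcohol dehydrogenases, relatives of ADH5 that act on ethanol or retinol, summed to 0.0786 and 0.0376 FPKM with formaldehyde, against 0.0335 and 0 FPKM untreated, and 4 of them were listed at 0 in every library. ADH5 was thus the only member of its family above 1 FPKM among those listed.

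Among the other 11 aldehyde dehydrogenases, 7 were tested, with 3 higher and 4 lower and a median log2 fold change of -0.07. The highest was ALDH18A1, an enzyme of proline synthesis, with 35.5 and 36.9 FPKM with formaldehyde against 33.3 and 29.2 FPKM untreated. ALDH16A1 had 18.02 and 17.7 FPKM with formaldehyde against 19.1 and 18.6 FPKM untreated. ALDH3B1 had 6.60 and 14.1 FPKM with formaldehyde against 14.7 and 16.6 FPKM untreated, and ALDH1L2, the mitochondrial enzyme that oxidizes formyl folate, had 3.46 and 4.56 FPKM with formaldehyde against 2.09 and 3.24 FPKM untreated. In these 4 the groups did not overlap, 2 above and 2 below among the 7 tested, where 16.2% and 10.7% of all genes did so; genes were named partly for not overlapping.

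Carbonyl reductases, which turn aldehydes and ketones into alcohols, had 11 tested members of 15, with 7 higher, 4 lower and a median log2 fold change of 0.04. AKR1B1, aldose reductase, had 153 and 178 FPKM with formaldehyde, against 276 and 233 FPKM untreated. Its log2 fold change was -0.62 ± 0.23 (SE, limma unadjusted p = 0.0463, adjusted p = 0.9999). Its level was well above that of every enzyme of the set. AKR1C3 had 1.53 and 0.699 FPKM with formaldehyde, against 3.24 and 2.70 FPKM untreated. Its log2 fold change was -0.93 ± 0.29 (SE, limma unadjusted p = 0.0244, adjusted p = 0.9999). AKR1C3 belongs to a family of similar genes among which the counting may have divided reads. CBR1 had 96.4 and 155 FPKM with formaldehyde against 105 and 117 FPKM untreated, which overlap, and DHRS4 had 4.61 and 4.63 FPKM with formaldehyde against 4.38 and 3.58 FPKM untreated.

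Genes that make, use, export or break down glutathione, the partner of ADH5, had 14 tested members of 15. Of these, 10 were higher and 4 lower, with a median log2 fold change of 0.10. The counts mix supply with use and breakdown and give no direction for supply. GLO1, which uses glutathione to clear methylglyoxal, had 96.8 and 94.5 FPKM with formaldehyde against 113 and 74.8 FPKM untreated, and the groups overlapped. GGT1, a transferase that breaks glutathione down, had 1.51 and 1.32 FPKM with formaldehyde against 0.418 and 0.892 FPKM untreated. Genes of formate and folate use, downstream of ESD, had 14 of 14 tested, with 10 higher, 4 lower and a median of 0.19. In 6 of these 14 both formaldehyde libraries lay above both untreated ones and in 2 below, beside 16.2% and 10.7% of all genes. ATIC, an enzyme of purine synthesis that takes up a formyl group, had 50.4 and 39.5 FPKM with formaldehyde against 37.4 and 24.1 FPKM untreated. MTHFD1L, the mitochondrial enzyme that releases formate from formyl folate, had 39.6 and 34.9 FPKM with formaldehyde against 27.1 and 24.8 FPKM untreated, a log2 fold change of 0.50 ± 0.20 (SE). SHMT2 had 163.5 and 189 FPKM with formaldehyde against 143 and 163.6 FPKM untreated, and TYMS had 167 and 184 FPKM with formaldehyde against 191 and 154 FPKM untreated, with overlap in both.

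Aldehyde oxidases and peroxide-removing enzymes had 8 tested members of 10, with 5 higher, 3 lower and a median log2 fold change of 0.16. CAT, the catalase that can also oxidize small alcohols, had 14.8 and 18.1 FPKM with formaldehyde against 21.1 and 20.1 FPKM untreated, and PRDX1 had 525 and 394 FPKM with formaldehyde against 595 and 278 FPKM untreated. Enzymes that release formaldehyde as they remove methyl groups had 20 tested members of 24, with 10 higher, 10 lower and a median of -0.01. ALKBH3 had 15.5 and 16.1 FPKM with formaldehyde against 13.4 and 12.8 FPKM untreated, which do not overlap. KDM1A, a histone demethylase, had 48.4 and 57.2 FPKM with formaldehyde against 58.3 and 52.9 FPKM untreated, which do.

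**Figure D5:**
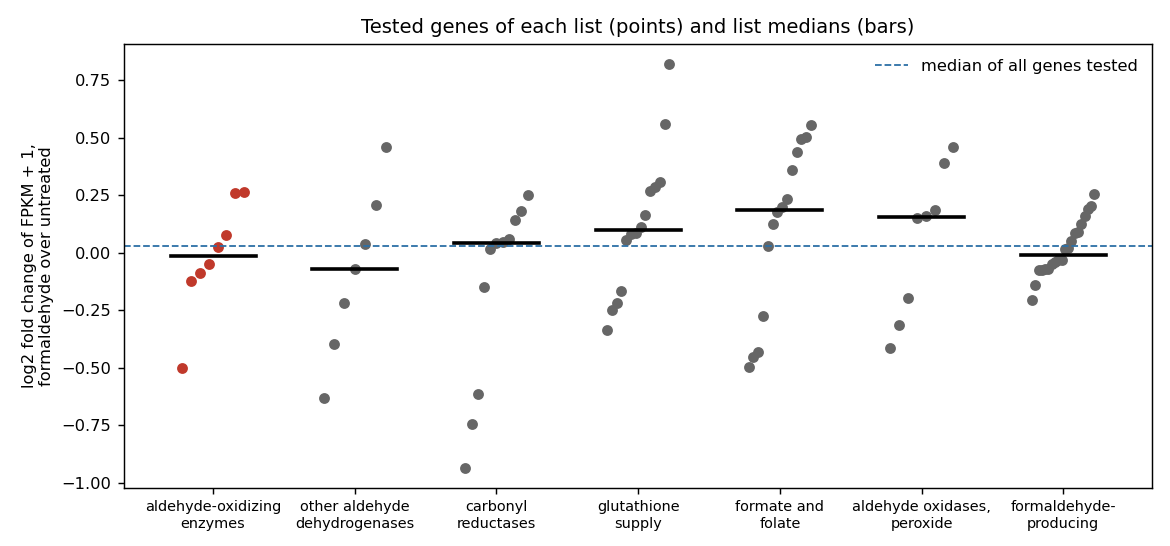
Log2 fold change of FPKM + 1, formaldehyde over untreated, of every tested gene in the enzyme set (red) and in the 6 lists of neighbouring steps with a tested gene (grey); black bars are list medians and the dashed line is the median of all genes tested, 0.03. List medians lie between -0.07 and 0.19.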

How the data were processed

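Total RNA of BEAS-2B cells was extracted with Trizol and made into libraries by Illumina protocols, per the labels' protocols, with 2 formaldehyde and 2 untreated libraries. Per the submitters' processing notes, Cufflinks 2.0.2, STAR 2.5.2 and FastQC 0.10.0 were used, and the builds listed are GRCh37 and hg19. How trimming, strand and multi-mapped reads were handled is not given here. The authors deposited FPKM of 40255 RefSeq transcripts per library with bounds and a coverage value, per the file headers and attributes. Each file was matched by a name equal to a sample title.

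The 894 transcripts without a gene name were left out and FPKM were summed for 23004 names. Depth was recovered from the bounds and the coverage of genes with 1 transcript, with a read length of 51 nt from a regression on transcript length. It was about 14200000 and 22200000 fragments (formaldehyde) and 16800000 and 26500000 (untreated). Genes with a mean of at least 1 FPKM entered limma 3.58.1 (R 4.3.3), fitted to log2(FPKM + 1) (mean trend, no covariate, two-sided, Benjamini-Hochberg over 12407 genes, threshold 0.05); no count test was run. The script was tested on simulated data. Intervals of log2 fold changes are 95% and those of fragments cover counting error only.

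The members and lists were chosen with earlier results of these data known. Of each list, the 2 tested genes with the highest mean and up to 3 with the largest log2 fold change among those whose groups do not overlap could be named, and any gene called; some of these are not reported here; beyond this, KRT5, KRT6A, KRT14, KRT17, KRT19, CDH1, EPCAM, TP63, COL3A1, DCN, PTPRC and CD3E are named to describe the cells, chosen after their values were seen. Other settings were a pseudocount of 0.1, no filter or one of 5 FPKM, scaling to median ratios or the FPKM sum, transcripts of 300 nt or more, each gene's highest transcript, no trend, the replicate block and each library left out. Figures were drawn with matplotlib 3.10.9 in Python 3.11.15.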

Additional observations from a re-analysis of the deposited data

How the results depend on the processing

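The labels do not say that replicate numbers mark a shared culture or day, so the fit has no block. Same-numbered libraries deviated together over the 12407 genes (r = 0.25 of their deviations from the group means), and 3 enzymes (ADH5, ESD and ALDH9A1) were higher in replicate 1 than in replicate 2 in both groups, as were 37.6% of all genes. ALDH2 and ALDH1A3 were lower in replicate 1 in both groups, as were 29.3% of all genes. Between libraries of the same number, ALDH2 was 1.24 and 1.19 times as high with formaldehyde as untreated. ALDH1B1 was 1.01 and 1.46 times and ALDH3A2 0.571 and 0.831 times as high. The other tested enzymes were lower with formaldehyde in replicate 1 and higher in replicate 2. How many of all genes keep their direction in this way was not counted. With the replicate block 29 genes were called, against 19 without it, and no enzyme. No filter on low values gave 0 called genes (956 at an unadjusted limma p under 0.05), genes of at least 300 nt gave 1, and leaving out 1 library gave 31 to 55. Those fits leave 1 library in an arm, which is assumed to vary like the other group's pair, so that their calls show nothing of stability. No enzyme was called under the other alternatives, nor in those fits. Over all alternatives, 92 values of the 8 enzymes kept their sign and 11 reversed. Many of the 92 could not reverse, since other filters, no trend and the replicate block leave a gene's estimate as it was. The count of kept signs is therefore no measure of stability. ALDH2 (0.09 to 0.43), ALDH1B1 (0.03 to 0.49) and ALDH3A2 (-0.73 to -0.28) kept theirs throughout. For ALDH1B1 and ALDH3A2, whose groups did not overlap, leaving out 1 library could not turn the sign. With 1 library left out the log2 fold change ran from -0.70 to 0.45 for ADH5, -0.32 to 0.48 for ESD, -0.63 to 0.45 for ALDH1A3, -0.33 to 0.23 for ALDH7A1 and -0.37 to 0.41 for ALDH9A1. ALDH9A1 was also -0.0174 with median-ratio scaling and -0.0407 with FPKM-sum scaling; the cause was not tested. ALDH1A3 has no value at a minimum of 5 FPKM. With the highest transcript of each gene the ALDH1B1 share in untreated cells was 10.2%, against 9.96%. Depth limits ALDH1A1 and ALDH3A1, where no library held more than 16.9 fragments.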
